A study of Mus musculus with 9 samples.

Results

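Elastic fibres give vessel walls, skin and the layers around the eye their recoil. A core of cross-linked elastin is laid down on a scaffold of fibrillin microfibrils. Fibulins bind both and help the core to assemble, and lysyl oxidases join elastin chains through their lysines. In the back of the eye, Bruch's membrane holds a middle layer of elastin between 2 layers of collagen. It lies between the retinal pigment epithelium (RPE) and the choroid (CH), on the side away from the photoreceptors (PR).

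The genes described here are elastin (Eln), the fibrillins Fbn1 and Fbn2, the fibulins Fbln1, Fbln2, Fbln5, Efemp1 (fibulin-3) and Efemp2 (fibulin-4), and the lysyl oxidases Lox and Loxl1. They were chosen by name: 15 array probes carry one of these 10 symbols, out of 39429 probes of 31829 genes. Fbn2, Fbln1, Fbln5, Lox and Loxl1 each have 2 probes and the other genes have 1. Values of a gene are those of its reported probe, the one with the highest mean Cy5 signal over all arrays, and the other probe is given beside it.

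Expression was measured on 9 dual-colour Agilent arrays, 3 each for CH, RPE and PR of female C57BL/6 mice, the J strain by the study's methods. According to the labels the mice were 6 months old, and the study's methods state another age. Each sample was laser dissected from 1 eye and its amplified RNA carried Cy5, while a common reference of mouse choroid and RPE RNA carried Cy3 on every array. No dyes were swapped, so the 2 colours cannot be balanced within a tissue. A value is log2(Cy5/Cy3): 0 means as much as in the reference, which was itself made from choroid and RPE. A difference between tissues was called where its fold change was above 2.5 (1.32 on the log2 scale) and its adjusted p below 0.01, from limma with Benjamini-Hochberg adjustment over all probes.

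The median Cy5 signal per array was between 617 and 1534, and between 62.1% and 91.7% of the probes were well above background. RPE replicate 2 had both highest values. The rod, cone and RPE lists went with the labels. In PR, 6 of 6 rod and 5 of 5 cone genes were called higher than in either other tissue, and 5 of 6 RPE genes were called higher in RPE than in CH. Called higher in CH than in RPE were 6 of 6 fibroblast, 2 of 7 smooth muscle and pericyte and 0 of 5 endothelial markers. The endothelial list did not separate these 2 tissues, with means of 0.65 to 1.43 on CH and 0.96 to 0.97 on RPE. Mean log2(Cy5/Cy3) of the RPE list was 0.29 to 1.10 on the CH arrays, so RPE transcripts were present there too. Rpe65 and Rdh5 were saturated on all RPE arrays and Gnat1 on all PR arrays, so their folds are lower bounds, as defined below with Fbln5. In RPE over CH the bounds were 1.28-fold for Rpe65 and 1.2-fold for Rdh5. Those of Gnat1 were 1.87-fold for PR over RPE and 2.22-fold for PR over CH. These bounds lie under 2.5-fold, although the measured differences were called. In bulk tissue, fewer cells of a type and less RNA per cell cannot be told apart.

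The windows just before the start sites of 4 genes are shown because their genes stand for the patterns below: a large gap to PR with little between CH and RPE (Fbn1 and Fbln5), a step between CH and RPE as well (Fbln1), and a spread among the RPE arrays (Efemp1). They come from RefSeq on GRCm38.p6, whose table matched 6 of the 10 genes (Fbn1, Fbln1, Fbln2, Fbln5, Efemp1 and Efemp2), and each holds the 250 bases before the most upstream start, 5′ to 3′. Capitals mark matches, on both strands, to the TATA box letters TATAAA, the GC box letters GGGCGG, the E-box CACGTG, the letters TGANTCA bound by AP-1 where the open base is C or G, and the Smad-type palindrome GTCTAGAC. No match overlapped another.
Fbn1, chr2:125506439-125506688, minus strand: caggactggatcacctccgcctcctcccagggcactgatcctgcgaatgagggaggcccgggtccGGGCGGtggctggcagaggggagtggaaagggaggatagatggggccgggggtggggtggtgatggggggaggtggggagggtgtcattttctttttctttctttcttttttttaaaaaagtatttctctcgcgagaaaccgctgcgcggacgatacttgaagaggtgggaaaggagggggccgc
Fbln5, chr12:101819120-101819369, minus strand: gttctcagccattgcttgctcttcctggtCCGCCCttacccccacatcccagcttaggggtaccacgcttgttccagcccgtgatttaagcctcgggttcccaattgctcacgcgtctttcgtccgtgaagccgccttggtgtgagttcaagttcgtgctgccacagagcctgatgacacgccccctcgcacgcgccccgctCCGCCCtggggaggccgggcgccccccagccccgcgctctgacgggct
Fbln1, chr15:85205699-85205948, plus strand: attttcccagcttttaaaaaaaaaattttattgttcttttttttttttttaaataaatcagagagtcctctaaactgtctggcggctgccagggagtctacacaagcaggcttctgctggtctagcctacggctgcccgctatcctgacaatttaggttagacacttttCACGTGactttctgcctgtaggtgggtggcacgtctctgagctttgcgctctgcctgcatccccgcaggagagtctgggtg
Efemp1, chr11:28852955-28853204, plus strand: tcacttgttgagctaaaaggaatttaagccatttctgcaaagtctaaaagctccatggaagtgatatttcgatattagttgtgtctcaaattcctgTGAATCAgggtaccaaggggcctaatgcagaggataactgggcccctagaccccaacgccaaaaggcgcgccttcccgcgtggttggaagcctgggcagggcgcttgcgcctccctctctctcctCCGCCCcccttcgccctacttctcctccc

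The GGGCGG letters stood in 5 of the 6 windows (all but Fbln1) and in 33% of the windows of all 27026 genes. CACGTG stood in that of Fbln1 and in 6.04% of all, and TGANTCA in that of Efemp1, where the open base is neither C nor G, and in 6.85% of all. TATAAA and GTCTAGAC were in none of the 6 windows, and in 13% and 0.174% of all. The share of G and C was 46.4% in the Fbln1 window and between 53.6% and 65.2% in the other 5, against a median of 52.0% over all. These matches describe letters and are not binding sites.

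Across the 3 tissues, the genes differed mainly between PR and the layers behind it. Of the 10 genes, 8 were called higher in RPE than in PR (all but Eln and Fbn2) and 9 were called higher in CH than in PR (all but Eln), and none was called in the opposite direction. Among all 31829 genes, 10.8% were called higher in RPE than in PR and 12.7% higher in CH than in PR, while 5.23% and 6.09% were called higher in PR. Between CH and RPE, 3 of the 10 genes were called higher in CH (Fbn2, Fbln1 and Lox) and 0 higher in RPE, against 1.74% and 0.179% of all genes. No gene of the 10 was highest in PR. With the deposited processed signals, the share of calls that were higher in RPE than in PR moved from 67.4% to 56.1% of all genes called, and that for CH over PR from 67.6% to 56.7%. The median difference over the 10 genes was 3.07 for RPE minus PR, 3.94 for CH minus PR and 0.76 for CH minus RPE on the log2 scale, against -0.01, -0.05 and -0.03 over all genes. The comparisons share arrays, so their counts are not independent.

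**Figure D1:**
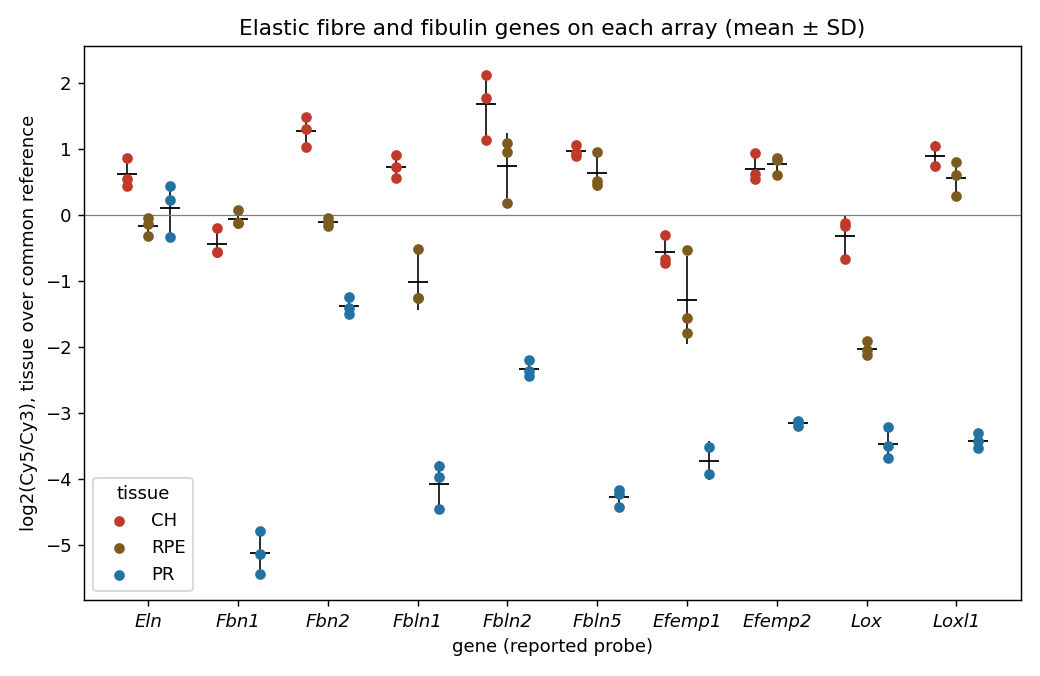
Log2(Cy5/Cy3) of the 10 genes at their reported probes on every array, with points for arrays in the colour of the tissue and black bars for the mean ± SD (n = 3, or 2 for Efemp1 in PR and Loxl1 in CH). The PR points of 9 genes lie below all CH and RPE points of the same gene, and Eln is the exception.

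Elastin, the core of the fibre, stood apart from all the others at its only probe. Eln (Entrez Gene 13717, probe at chr5:135179129-135179188 on mm9, minus strand) gave 0.55, 0.86 and 0.44 on CH replicates 1 to 3, -0.04, -0.33 and -0.14 on RPE, and 0.22, -0.34 and 0.43 on PR. All CH arrays lay above all RPE and PR arrays, but the lowest CH array (0.436) was only just above the highest PR array (0.432). The PR arrays spanned the whole RPE range. CH exceeded RPE by 0.78 ± 0.19 (SE; 1.72-fold, adjusted p = 0.0173, limma) and PR by 0.51 ± 0.19 (1.42-fold, adjusted p = 0.0494, limma), and neither was called. CH minus PR was 0.29 without PR replicate 2 and 1.00 with the slide as a block (adjusted p = 0.00693, limma), under 2.5-fold in both. RPE minus PR was -0.28 with a 95% interval from -0.71 to 0.16 (adjusted p = 0.276, limma). At the reported probes, Eln was therefore the only member whose difference from PR stayed below 2.5-fold in both layers. Its probe was well above background on every array. Its mean Cy5 signal was the lowest of all reported member probes in CH and RPE, while Fbn2 and Lox were lower in PR. In every gene with 2 probes, the probe with the lower mean Cy5 signal over all arrays gave the smaller difference from PR. That mean takes in the CH and RPE arrays, so ranking by it favours the probe that is higher in those layers. For Fbln1 the probe ranked lower was the brighter one in PR (mean log2 Cy5 11.43 against 10.58). The part of probe brightness in the small differences of Eln was not tested. On the 1 slide that holds an array of each tissue the differences were 1.18 (CH minus RPE), 0.02 (RPE minus PR) and 1.20 (CH minus PR), each from 1 array against 1.

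The genes whose values ran most like those of Eln over the 9 arrays, among 31342 genes with a value on each, were 4931440P22Rik (r = 0.97), Fbl (r = 0.97), Spna2 (r = 0.96), the transcript ENSMUST00000064735 (r = 0.96) and Nhej1 (r = 0.95). None of the 9 other members is among them. These correlations describe 9 points that share a reference channel and fall into 3 tissues.

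Fibrillins form the microfibrils on which elastin is deposited. Fbn1 (Entrez Gene 14118, probe at chr2:125126727-125126786 on mm9, minus strand), the main fibrillin of adult tissue, gave -0.56, -0.56 and -0.19 on CH, 0.07, -0.13 and -0.12 on RPE, and -4.79, -5.45 and -5.15 on PR. Every PR array lay far below every CH and RPE array. Fbn1 was 33.6-fold higher in RPE than in PR (log2 difference 5.07 ± 0.17 SE, adjusted p = 1.71e-08, limma) and 25.8-fold higher in CH than in PR (4.69 ± 0.17 SE, adjusted p = 1.59e-08). The RPE arrays all lay above the CH arrays, and CH minus RPE was -0.38 (95% interval -0.76 to 0.00, adjusted p = 0.154, limma), so a step of 2.5-fold in either direction lay outside the interval. Over the 9 arrays Fbn1 ran closest to Slc25a13 (r = 1.00), Gsta2, Lamb1-1, 2210011C24Rik and Thbs1 (each r = 1.00). The 9 points form 1 cluster of the 6 CH and RPE arrays and another of the 3 PR arrays, and these r values describe little beyond that split.

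Fbn2 (Entrez Gene 14119), known best from developing tissue, had a different profile from Fbn1. It gave 1.49, 1.30 and 1.04 on CH, -0.04, -0.11 and -0.17 on RPE, and -1.25, -1.41 and -1.50 on PR. The tissues formed 3 separate steps with no overlap. CH was 2.61-fold higher than RPE (log2 difference 1.38 ± 0.13 SE, adjusted p = 0.000163, limma), just above the threshold. RPE was 2.43-fold higher than PR (1.28 ± 0.13 SE, adjusted p = 1.54e-05, limma), just under it and so not called, and CH was 6.33-fold higher than PR (2.66 ± 0.13 SE, adjusted p = 7.6e-08). The other probe of Fbn2 gave 1.20, 1.18 and 2.38 for the same differences, of which only CH over PR was called. The step from CH to RPE was not called without CH replicate 1 (1.28), nor with the Cy5 channel alone (1.67, adjusted p = 0.013, limma) with the series table (1.69, adjusted p = 0.0191) or with the mean of both probes (1.29). RPE over PR was called without PR replicate 1 (1.35), with the Cy5 channel alone (1.46) and with the series table (1.49).

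**Figure D2:**
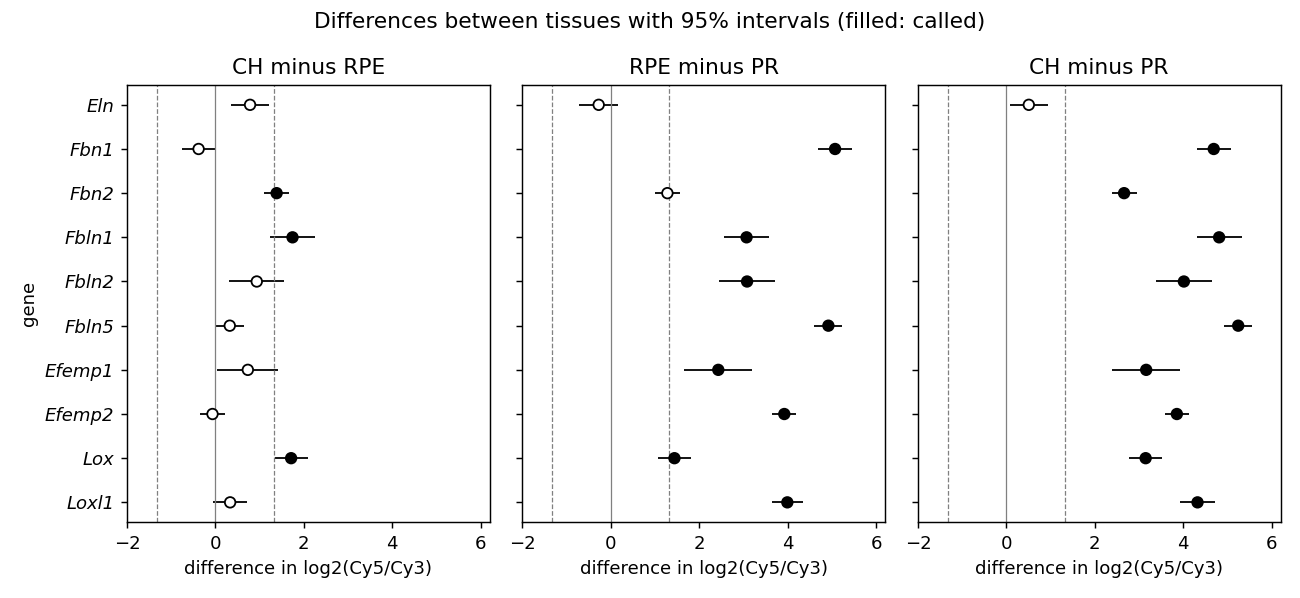
Differences in log2(Cy5/Cy3) between the tissues for the 10 genes, with horizontal bars for the 95% interval, filled points for called genes and dashed lines at a fold change of 2.5. In CH minus RPE, Fbn2, Fbln1 and Lox are filled, and in both comparisons with PR Eln lies left of the dashed line at 1.32.

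Fibulins tether elastin to the microfibrils and to other matrix proteins. Fbln5 (fibulin-5, Entrez Gene 23876, probe at chr12:102988153-102988212 on mm9, minus strand), which elastic fibre assembly needs, gave 0.90, 0.95 and 1.06 on CH, 0.45, 0.96 and 0.52 on RPE, and -4.17, -4.23 and -4.43 on PR. RPE replicate 2 lay among the CH arrays, and all PR arrays lay far below. The difference was 4.92 ± 0.14 (SE) for RPE minus PR (adjusted p = 8.9e-09, limma) and 5.24 ± 0.14 for CH minus PR (37.9-fold, adjusted p = 3.92e-09). CH minus RPE was 0.32 with a 95% interval from 0.01 to 0.64 (adjusted p = 0.141, limma), which lies within a fold of 1.56. Of the 10 genes at their reported probes, Fbln5 had the largest difference between CH and PR. Its other probe gave 0.30 between CH and RPE. It was not well above background on any PR array, where its fold is a bound: at least 3.27-fold for RPE over PR (measured difference 1.94, adjusted p = 1.62e-06) and at least 4.52-fold for CH over PR (2.23, adjusted p = 4.69e-07, limma). A bound is the mean Cy5 signal in the brighter tissue against the higher of the probe's own signal and the lowest signal counted as well above background in the dimmer one, and is open to dye bias.

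Efemp2 (fibulin-4, Entrez Gene 58859, probe at chr19:5481762-5481821 on mm9, plus strand), which brings lysyl oxidase to elastin, gave 0.94, 0.54 and 0.63 on CH, 0.61, 0.87 and 0.83 on RPE, and -3.20, -3.13 and -3.13 on PR. CH and RPE arrays were interleaved. CH minus RPE was -0.07 with a 95% interval from -0.34 to 0.21, that is between 0.79 and 1.16 as a fold (adjusted p = 0.763, limma), and its sign turned with median centring (0.21) and without CH replicate 2 (0.017). Against PR, Efemp2 was 15.2-fold higher in RPE (log2 difference 3.92 ± 0.12 SE, adjusted p = 1.22e-08, limma) and 14.5-fold higher in CH (3.86 ± 0.12 SE, adjusted p = 7.56e-09).

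Fbln1 (fibulin-1, Entrez Gene 14114, probe at chr15:85115998-85116057 on mm9, plus strand), a fibulin of vessel walls and basement membranes, gave 0.57, 0.90 and 0.73 on CH, -0.51, -1.26 and -1.26 on RPE, and -3.97, -4.46 and -3.81 on PR. The 3 tissues were fully separated, with RPE replicate 1 above the other RPE arrays. CH was 3.35-fold higher than RPE (log2 difference 1.74 ± 0.23 SE, adjusted p = 0.000843, limma), RPE was 8.39-fold higher than PR (3.07 ± 0.23 SE, adjusted p = 2.16e-06) and CH was 28.1-fold higher than PR (4.81 ± 0.23 SE, adjusted p = 7.93e-08). Within slides, CH minus RPE was 1.53 over 2 arrays of each tissue and 2.16 on the slide with 1 of each. The other probe of Fbln1 gave smaller differences of 0.84 (adjusted p = 0.0331, limma), 1.25 and 2.08, of which only CH over PR was called. The step from CH to RPE thus rests on 1 of 2 probes, and with the mean of both it was 1.29 and not called.

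Fbln2 (fibulin-2, Entrez Gene 14115, probe at chr6:91222118-91222177 on mm9, plus strand), a ligand of fibrillin and basement membrane proteins, gave 1.78, 2.12 and 1.13 on CH, 0.96, 1.10 and 0.18 on RPE, and -2.20, -2.37 and -2.44 on PR. The lowest CH array was only just above the highest RPE array, and replicate 3 was the lowest in both tissues. Fbln2 was 8.46-fold higher in RPE than in PR (log2 difference 3.08 ± 0.28 SE, adjusted p = 8.67e-06, limma) and 16.2-fold higher in CH than in PR (4.02 ± 0.28 SE, adjusted p = 1.06e-06). CH minus RPE was 0.94 (95% interval 0.31 to 1.56, adjusted p = 0.0378, limma). It was not called, but the interval does not exclude a step of 2.5-fold.

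Efemp1 (fibulin-3, Entrez Gene 216616, probe at chr11:28826647-28826706 on mm9, plus strand) is known for a human missense change that causes an inherited macular dystrophy with deposits under the RPE. It gave -0.73, -0.66 and -0.30 on CH and -0.54, -1.78 and -1.57 on RPE. On PR it gave -3.93 and -3.52 on replicates 1 and 2, and the spot of PR replicate 3 was marked as an outlier and left out of the fit. RPE replicate 1 lay within the CH range and the other RPE arrays lay below it. CH minus RPE was 0.73 with a 95% interval from 0.04 to 1.42 (adjusted p = 0.126, limma), which does not exclude a step of 2.5-fold. It was 0.49 without RPE replicate 2 and 1.11 without RPE replicate 1 (adjusted p = 0.00769, limma), and was called in neither case. RPE exceeded PR by 2.43 ± 0.34 (SE; 5.39-fold, adjusted p = 0.000294, limma) and CH exceeded PR by 3.16 ± 0.34 (8.96-fold, adjusted p = 4.55e-05). With the slide as a block RPE minus PR was 1.93 with an adjusted p of 0.0203 (limma), which is not a call. Over the 8 arrays with a value, genes whose values ran like those of Efemp1, among 31465, included Aldh1a3, Xbp1, Fhdc1 and Slc6a17 (each r = 0.99).

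Efemp1 and Fbln1 thus shared a higher value on RPE replicate 1 than on the other RPE arrays. On RPE replicate 1 the rod list had a mean of 0.20, against -0.67 and -0.37 on the other RPE arrays, the cone list -0.53 against -0.93 and -0.95, the Müller glia list -1.01 against -1.64 and -1.67, and the pigment cell list -0.08 against -0.49 and -0.65. The skeletal muscle list gave -1.89 against -2.78 and -2.42, and the cartilage and sclera and red blood cell lists were also highest on RPE replicate 1. So were the macrophage and leukocyte list and, at -0.80 against -0.83 and -1.15, the fibroblast list. The smooth muscle and pericyte list was lowest there (0.44 against 0.77 and 0.46). On that array the endothelium and RPE lists lay between their values on the other RPE arrays. The part of these differences in the values of Efemp1 and Fbln1 was not tested. Without RPE replicate 1, the counts of members called were 3 for CH over RPE, 8 for RPE over PR and 9 for CH over PR, as with all arrays.

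Lysyl oxidases are copper enzymes that cross-link elastin and collagen. Lox (Entrez Gene 16948) gave -0.17, -0.12 and -0.66 on CH, -1.92, -2.05 and -2.12 on RPE, and -3.21, -3.69 and -3.50 on PR. The 3 tissues formed separate steps, with RPE between. Lox was 3.28-fold higher in CH than in RPE (log2 difference 1.71 ± 0.17 SE, adjusted p = 0.000217, limma), 2.71-fold higher in RPE than in PR (1.44 ± 0.17 SE, adjusted p = 5.23e-05) and 8.88-fold higher in CH than in PR (3.15 ± 0.17 SE, adjusted p = 1.68e-07). At their reported probes, Lox and Fbln1 were the only members called in all 3 comparisons. With the mean of both Lox probes, RPE minus PR was 0.99 and not called. The other probe of Lox gave 1.12 between CH and RPE (adjusted p = 0.000206, limma), which lies under 2.5-fold. That probe was well above background on 3 of 3 CH arrays, 1 of 3 RPE arrays and 0 of 3 PR arrays, and its bound was at least 3.13-fold for CH over PR (measured difference 1.67) and at least 1.24-fold for RPE over PR (0.54, not called).

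Loxl1 (Entrez Gene 16949, probe at chr9:58138570-58138629 on mm9, minus strand), a lysyl oxidase tied to elastin, gave 1.05 and 0.75 on CH replicates 1 and 3, while the spot of CH replicate 2 was marked and left out. It gave 0.28, 0.81 and 0.61 on RPE and -3.54, -3.31 and -3.43 on PR. RPE replicate 2 lay between the 2 CH values. Loxl1 was 15.9-fold higher in RPE than in PR (log2 difference 3.99 ± 0.15 SE, adjusted p = 9.1e-08, limma) and 4.32 ± 0.17 (SE) higher in CH than in PR on the log2 scale (adjusted p = 7.66e-08). CH minus RPE was 0.33 with a 95% interval from -0.05 to 0.72 (adjusted p = 0.213, limma), and the other probe gave the opposite sign, -0.41 (adjusted p = 0.0471, limma). Neither was called, and the direction between CH and RPE is not settled by these probes. Both probes were called against PR, the other one at 1.83 for RPE and 1.42 for CH.

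**Figure D3:**
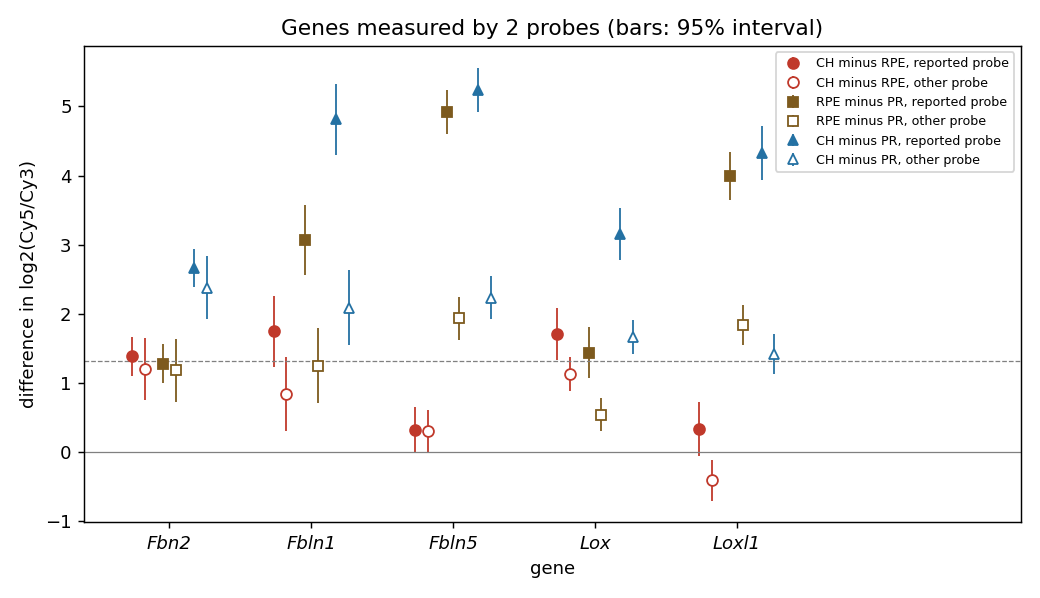
Differences in log2(Cy5/Cy3) for the 5 genes with 2 probes, with filled symbols for the reported probe, open symbols for the other probe, vertical bars for the 95% interval and a dashed line at a fold change of 2.5. In each comparison with PR the reported probe gave the larger difference, and for Loxl1 the 2 probes lie on opposite sides of 0 between CH and RPE.

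Taking the probes one by one, 3 of the 15 were called between CH and RPE, 10 between RPE and PR and 14 between CH and PR. The share called over all 39429 probes was not computed, so these counts only describe the 15 probes. The single probe not called between CH and PR was that of Eln. The 3 genes with a called step from CH to RPE all lost it at their other probe, where the differences of 1.20 (Fbn2), 0.84 (Fbln1) and 1.12 (Lox) kept the direction. Within slides the called steps from CH to RPE were 1.37 and 1.41 for Fbn2, and 1.61 and 1.93 for Lox, the first over 2 arrays of each tissue and the second over 1 of each. On the slide with 1 array of each tissue, RPE minus PR lay between 1.30 and 5.32 for the 9 genes other than Eln. Other PR arrays were on a slide of their own, so for those slide and tissue cannot be told apart.

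The other genes of the pathway, a list of 31, were also called mostly between PR and the layers behind it. In RPE over PR, 19 of the 31 were called and 0 in the opposite direction, with a median difference of 1.76. In CH over PR, 24 were called and 1 (Bmp1) was called higher in PR, with a median of 2.35. Between CH and RPE, 2 were called higher in CH (Ctss and Mfap5), 1 higher in RPE (Loxl4) and 28 were not called, with a median of 0.46. These counts can be read against the shares of all genes given above.

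Among the 14 genes of microfibrils and latent TGF-beta binding, 8 were called higher in RPE than in PR and 12 in CH than in PR. All latent TGF-beta binding proteins on the list, Ltbp1 to Ltbp4, passed in both. The call of Ltbp2 for RPE over PR was lost in 13 of 22 alternatives, 7 of them with an array left out, and that of Mfap4 for CH over PR in 8. Mfap5, a microfibril protein, was the one called between CH and RPE. It gave 0.24, 0.30 and -0.29 on CH, -1.80, -1.59 and -1.74 on RPE, and -2.91, -2.86 and -3.23 on PR. CH was 3.48-fold higher than RPE (log2 difference 1.80 ± 0.17 SE, adjusted p = 0.000181, limma), with no overlap of the tissues.

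Each of the further lysyl oxidases Loxl2, Loxl3 and Loxl4 was called higher than in PR in both layers. Of these, Loxl4 was the one called between CH and RPE, and it was higher in RPE. It gave -0.50, -0.65 and 0.07 on CH, 1.29, 1.13 and 1.10 on RPE, and -2.38, -2.48 and -2.36 on PR. RPE was 2.90-fold higher than CH (CH minus RPE -1.54 ± 0.17 SE, adjusted p = 0.000389, limma). The study's own list of RPE signature genes, made from these samples, holds Loxl4, so this is no independent evidence of its direction.

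The genes listed for lysyl oxidase maturation and copper loading did not move as 1 group. Pcolce, an enhancer of procollagen processing, differed by 4.99 ± 0.17 (SE) between RPE and PR (adjusted p = 1.67e-08, limma) and by 5.02 ± 0.17 between CH and PR (adjusted p = 9.84e-09). Bmp1, the protease that releases active lysyl oxidase, was 2.76-fold higher in PR than in CH (CH minus PR -1.47 ± 0.19 SE, adjusted p = 9.97e-05, limma). Its PR arrays gave 2.105, 1.388 and 2.144, against 0.56, 0.22 and 0.46 on CH and 0.71, 0.77 and 0.59 on RPE. At the reported probe, every PR array of Bmp1 thus lay above every array of the other tissues. Bmp1 has 2 probes, and its call in PR over CH was lost in 4 of 22 alternatives, among them the mean over all probes. Atp7a, a copper transporter, was called higher in both layers than in PR.

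The 9 genes listed for elastin and fibulin breakdown include the inhibitor Timp3. Of the 9, 4 were called higher in RPE than in PR and 5 in CH than in PR, with Timp3 among both. Ctss, the elastin-cleaving cathepsin S known from macrophages, gave 1.05, 1.67 and 1.22 on CH, -1.48, -1.60 and -1.82 on RPE, and -5.32, -5.65 and -5.48 on PR. Its differences were 2.95 ± 0.17 (SE) for CH minus RPE (adjusted p = 3.42e-05, limma), 3.85 ± 0.17 for RPE minus PR (adjusted p = 6.72e-08) and 6.80 ± 0.17 for CH minus PR (adjusted p = 2.89e-09). The macrophage and leukocyte markers, of which 0 of 4 were called between CH and RPE, had a mean of -0.60 to -0.03 on CH, -0.78 to -0.73 on RPE and -2.54 to -2.21 on PR, and their part in the values of Ctss was not tested. Timp3, a metalloproteinase inhibitor held in Bruch's membrane, gave 1.24, 1.38 and 1.12 on CH, 2.76, 2.26 and 1.70 on RPE, and -3.05, -3.30 and -3.31 on PR. Its probe was saturated in Cy5 on all 3 CH and all 3 RPE arrays, so its folds over PR are bounds and no fold or order is given between CH and RPE. It was at least 7.78-fold higher in RPE than in PR (measured difference 5.46, adjusted p = 4.77e-08, limma) and at least 7.28-fold higher in CH than in PR (4.46, adjusted p = 1.18e-07).

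**Figure D4:**
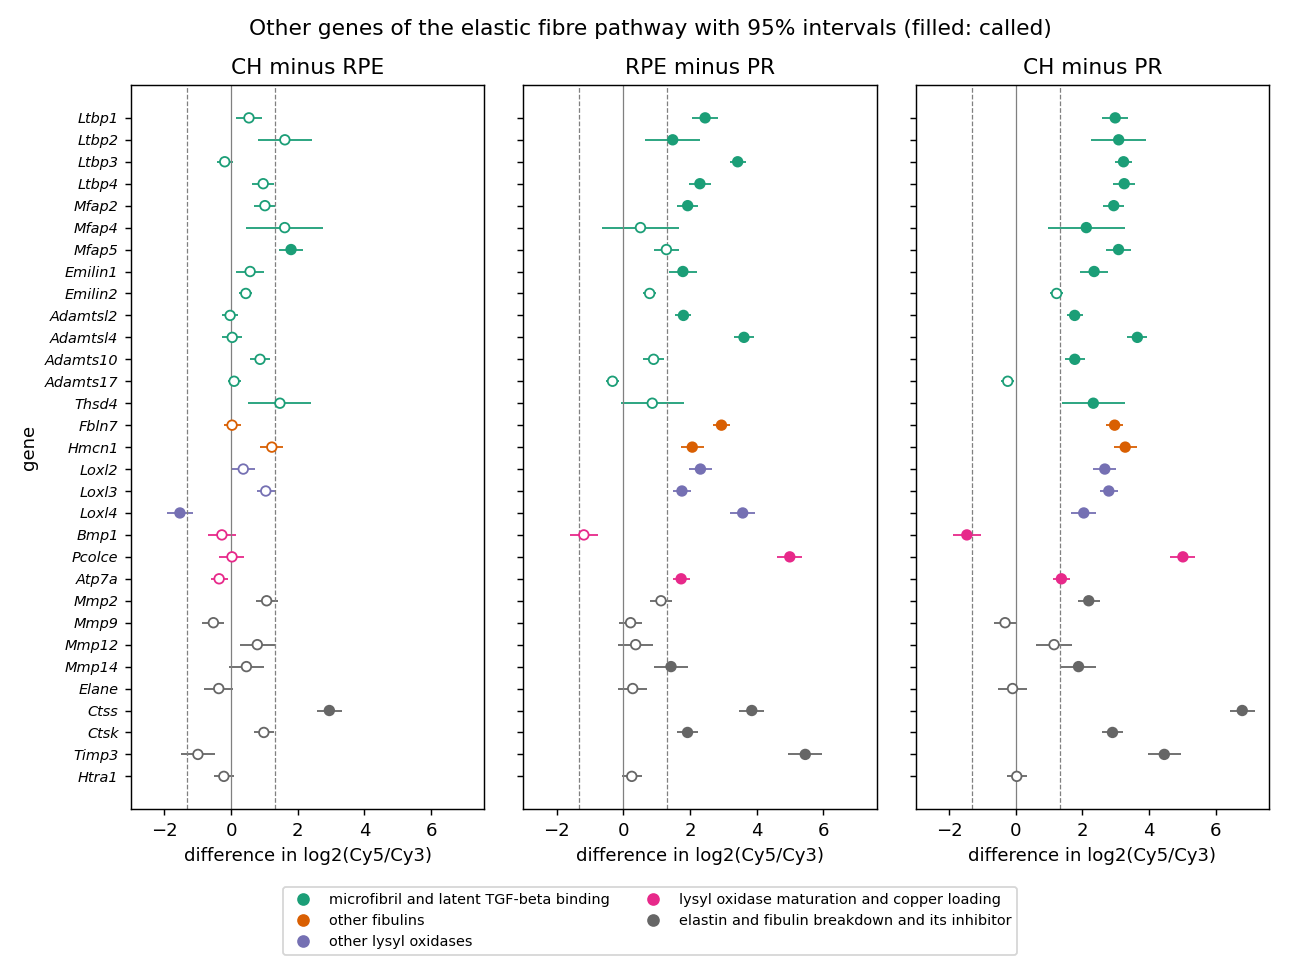
Differences in log2(Cy5/Cy3) for the 31 other genes of the pathway, coloured by role, with horizontal bars for the 95% interval, filled points for called genes and dashed lines at a fold change of 2.5. Ctss lies furthest right in CH minus PR at 6.80, Loxl4 is the filled point left of 0 in CH minus RPE, and Bmp1 lies left of 0 in all 3 panels. Timp3 is plotted at its measured values, which are saturated on all CH and RPE arrays.

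The tissues also differed in the markers of cells that make elastic fibres. Of 6 fibroblast markers, 6 were called higher in CH than in RPE with a median difference of 2.41, and 6 were called higher than in PR in both layers. The mean of the fibroblast list was 1.27 to 1.69 on CH, -1.15 to -0.80 on RPE and -4.99 to -4.40 on PR, and all 6 genes were well above background on at least 1 array of every tissue. Dcn was saturated on all CH arrays. Its bound for CH over RPE was at least 2.26-fold, under 2.5-fold although the measured difference was called. From CH to RPE, the fibroblast markers moved with the called steps of Fbn2, Fbln1 and Lox, but the other 7 members had no called step. Their CH minus RPE lay between -0.38 (Fbn1) and 0.94 (Fbln2). Against PR, the markers moved with the gap of all genes but Eln. The part of fibroblasts in the values of the 10 genes was not tested.

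Of 7 smooth muscle and pericyte markers, 2 were called higher in CH than in RPE, 6 in RPE than in PR and 7 in CH than in PR. Their mean was 1.12 to 1.82 on CH, 0.44 to 0.77 on RPE and -2.46 to -2.37 on PR. Of 5 endothelial markers, 0 were called between CH and RPE and 4 were called higher in each layer than in PR, with means of 0.65 to 1.43 on CH, 0.96 to 0.97 on RPE and -1.88 to -1.73 on PR. The part of these cells in the values of the 10 genes was not tested either.

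Of the 6 rod and 5 cone genes, 0 were called between CH and RPE. Of 4 pigment cell genes, 2 were called higher in CH than in RPE and 4 were called higher in each layer than in PR. Tyrp1 was saturated on all CH arrays and Dct on all CH and RPE arrays. Tyrp1 was called in CH over RPE, but its bound there was at least 1.4-fold, under 2.5-fold. Of 6 cartilage and sclera genes, 2 were called higher in CH than in RPE, 0 in RPE over PR and 2 in CH over PR, and 3 of the 6 were not well above background on any PR array. Of 4 skeletal muscle, 3 red blood cell and 4 Müller glia genes, 0 were called between CH and RPE, and 1 of each list was called higher in RPE and in CH than in PR. Of the 4 macrophage and leukocyte genes, 1 was called higher in RPE than in PR and 4 in CH than in PR. RPE genes were called higher than in PR in 5 of 6 cases in both layers.

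**Figure D5:**
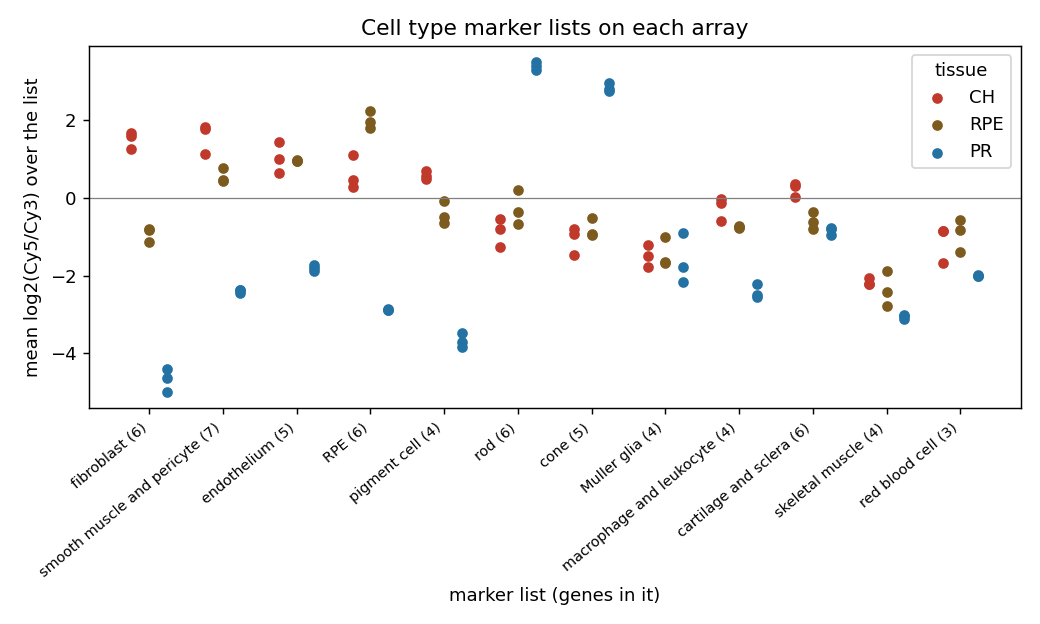
Mean log2(Cy5/Cy3) over each of 12 marker lists on every array, with points for arrays in the colour of the tissue and the number of genes in brackets. The fibroblast list falls from CH (1.27 to 1.69) over RPE (-1.15 to -0.80) to PR (-4.99 to -4.40), and the rod and cone lists are highest in PR.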

How the data were processed

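The authors scanned 9 dual-colour arrays with Agilent Feature Extraction 9.5.3.1 and deposited, for each spot, the mean signal and median background as intensity values, and processed intensities corrected for background and dye. A table for the whole series, also deposited, has log2 Cy5 values, whose correlation with log2 of the mean Cy5 signal lay between 0.9845 and 0.9991 per array. Its normalization is not named in the sources used here, and it served as an alternative, as did the processed signals. The submitters' notes name R 2.14.0 and limma.

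From the mean signals, background was corrected with normexp (offset 50), log2(Cy5/Cy3) was normalized within arrays by loess with control spots at weight 0, and 228 to 586 marked spots per array were left out. Spots of a probe were averaged (399 of 39429 probes). Means of the 3 tissues were fitted to 9 arrays with limma 3.58.1 in R 4.3.3 and tested with eBayes, with Benjamini-Hochberg adjustment over all probes. Group labels came from the sample descriptions. CH against PR is not a comparison of the study.

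The 10 genes, the 31 pathway genes and the 12 marker lists were chosen with earlier results of these data known. All 10 genes are named by rule, with the 3 most different called pathway genes per direction and, for Eln, Efemp1 and Fbn1, the 5 genes of highest Pearson correlation. A gene that this rule chose is not reported here. Ltbp1 to Ltbp4, Loxl2, Loxl3 and Atp7a were named in addition, as were Mfap4 and the marker genes with saturated probes, and the values of Bmp1 in RPE were chosen after they were seen. RefSeq (GRCm38.p6) gave Entrez Gene numbers and promoter windows, and probe positions are those of the files (mm9). The part of the transcript that a probe matches was not analysed here. The fit was tested on simulated data. Alternatives changed background, normalization, reference, arrays, blocks, filters, variance model, probe choice and thresholds. The number of arrays limits the precision, and the labels do not say whether the eyes of a tissue came from separate mice, so p-values may measure technical spread. Figures were made with Python 3.11.15 and matplotlib 3.10.9.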

Additional observations from a re-analysis of the deposited data

How the results depend on the processing

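The 3 counts of called members, the pathway counts and the 30 differences of the 10 genes were recomputed under 13 other settings and with each of 9 arrays left out, and the member counts also with a fold change of 2 and an adjusted p of 0.05. Of 660 recomputed differences, 645 kept direction and side of the threshold, 8 lost and 3 gained the call (the 3 being Fbn2 in RPE minus PR), and 4 changed sign. The changes of sign were Efemp2 in CH minus RPE with median centring (0.21) and without CH replicate 2 (0.017; -0.19 to 0.017 with an array left out), Eln in RPE minus PR with the slide as a block (0.22), and Loxl1 in CH minus RPE with the mean over all probes of a gene (-0.27).

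Members called higher in CH than in RPE were 1 in place of 3 with the series table and with the mean over all probes of a gene, and Lox was the one called in both. Called pathway genes for CH over RPE numbered 7 in place of 2 with median centring, and 2 to 4 with an array left out. For Bmp1, the call in PR over CH was lost (0 genes) with the Cy5 channel alone, the slide as a block, the series table and the mean over all probes, and a call in PR over RPE was gained (1 gene) with processed signals, median centring and array weights, and 0 to 1 with an array left out, 1 being without PR replicate 2. Timp3 had no value in the series table. The causes were not tested. Over all genes, 611 were called between CH and RPE, 1056 with median centring, 350 with the series table and 1447 at a fold change of 2. Median centring put the median of all genes in CH minus PR at -0.11.

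Same-numbered samples did not pair by the rule that every correlation of their deviations is above 0.1 (CH and RPE: -0.07, 0.16 and -0.04). With the replicate number as a block, the counts of members called were 3, 8 and 9, as without it, and 4 pathway genes were called for CH over RPE.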
